A study of Rattus norvegicus with 6 samples.

Results

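The miR-26 family was followed through 6 small RNA libraries of rat testicle by taking every row of the deposited table whose name begins miR-26a or miR-26b. This gave 4 rows of the 764 in the table, namely rno-miR-26a-5p, rno-miR-26a-3p, rno-miR-26b-5p and rno-miR-26b-3p, written below without the species prefix, and all 4 were among the 570 rows with a value above 0 in some library. All were from male Sprague Dawley rats, with 3 libraries labelled HO-1 knockout and 3 wild type (WT). HO-1 is heme oxygenase 1, the stress-induced enzyme that degrades heme. Tissue of both genotypes had gone through torsion of the left testis by 720° for 2 h and was taken 3 days after the testis was let back, so the contrast was between genotypes after the same injury, and no uninjured tissue was analysed here. How the HO-1 allele was made, and whether each library came from its own animal, is not given in the labels, so p-values measure the spread between these libraries only. Small RNA libraries hold no reading of HO-1 itself, so nothing here checks the genotype labels.

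A miRNA hairpin is cut into a 5p and a 3p strand, of which usually a single strand, the guide, is kept in an Argonaute protein, while the other is degraded. The guide finds its messenger RNAs mainly through its seed, bases 2 to 8. miR-26a and miR-26b are widely expressed guides from the 5p arm, known for repressing Ezh2, the methyltransferase of Polycomb repressive complex 2, and G1 cyclins, and miR-26a is known to restrain growth of liver cells. In mouse and human their hairpins lie in introns of genes for small phosphatases of the RNA polymerase II tail, and miR-26a comes from more than a single locus.

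The mature sequences are shown because the 5p arms differ so little that their separate counts rest on few bases, while the 3p arms are distinct (RefSeq, assembly GRCr8, 5′ to 3′, seed in capitals).
miR-26a-5p: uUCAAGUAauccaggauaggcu
miR-26b-5p: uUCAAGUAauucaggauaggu
miR-26a-3p: cCUAUUCUugguuacuugcac
miR-26b-3p: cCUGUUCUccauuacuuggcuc
Counted from 1 at the 5′ end without gaps, the 5p arms were identical at 19 of 21 bases and differed by C11U and C21U, written from miR-26a-5p to miR-26b-5p, with 1 more base at the 3′ end of miR-26a-5p. Both share the seed UCAAGUA, which no other of 693 mature rat miRNAs in the RefSeq table carried. The 3p arms were identical at 14 of 21 bases, and their seeds differed from each other and from every other entry. The mismatches allowed when reads were assigned are not stated in the labels or the table, so whether any miR-26a-5p reads were counted as miR-26b-5p could not be examined.

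The hairpins are shown to place the arms, which are in capitals.
Mir26a: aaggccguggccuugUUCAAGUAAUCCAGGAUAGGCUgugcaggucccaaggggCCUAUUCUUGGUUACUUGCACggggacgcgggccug
Mir26b: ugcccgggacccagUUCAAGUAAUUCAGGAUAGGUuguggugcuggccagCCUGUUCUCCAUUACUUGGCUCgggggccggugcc
In GRCr8, Mir26a lies on chromosome 8 within the span of Ctdspl, and Mir26b on chromosome 9 within the span of Ctdsp1. Each has the strand of its host, and both hosts encode small phosphatases of the RNA polymerase II tail. The arms are 17 bases apart in Mir26a and 15 bases apart in Mir26b. The RefSeq table used here holds 1 hairpin of miR-26a, so reads of its 5p arm from any second locus cannot be told apart from those of Mir26a.

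Values are reads per 1000000 reads assigned to miRNAs (RPM). The size of 1 read could be worked out from the values, and totals were 8300536 to 9809055 reads in the knockout and 9128924 to 10042673 reads in the wild type. The tissue label was at odds with the marker miRNAs. The hepatocyte miRNA miR-122-5p held 40.2% to 46.4% of all reads in the knockout and 32.7% to 36.6% in the wild type, while 14 tested germ and Sertoli cell miRNAs of a list of 19 summed to 28.9 to 33.6 RPM in the knockout and 39.8 to 55.6 RPM in the wild type. Of the remaining names of that list, 4 were at 0 in every library and 1 was not a row. Which cells the miR-26 values describe was not measured, and in such bulk libraries fewer cells of a type and less RNA per cell cannot be told apart.

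miR-26a-5p was among the most abundant miRNAs of these libraries, and miR-26b-5p stood several-fold below it. miR-26a-5p was sixth of all rows in each of the 6 libraries. Its levels were 37172, 37958 and 38122 RPM in knockout libraries 1 to 3, against 44307, 47589 and 47292 RPM in wild type libraries 1 to 3. All 3 knockout libraries lay below all 3 wild type libraries, a separation seen, in either direction, in 26% of the 570 tested miRNAs. The means were 37750.5 ± 508 RPM in the knockout and 46396 ± 1815 RPM in the wild type (SD, n = 3 each), so the mean was 18.6% lower in the knockout.

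miR-26b-5p ranked between 18 and 21 in every library. Its levels were 6069, 6920 and 6518 RPM in knockout libraries 1 to 3, against 6769, 7425 and 5925 RPM in wild type libraries 1 to 3. The groups overlapped, and the highest and the lowest value were both in the wild type. The means were 6502 ± 426 RPM in the knockout and 6706 ± 752 RPM in the wild type (SD, n = 3 each).

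The 3p arms, the passenger strands here, were rare. miR-26b-3p was at 14.3, 15.7 and 17.2 RPM in knockout libraries 1 to 3, against 14.3, 16.7 and 13.4 RPM in wild type libraries 1 to 3, which is 119 to 155 reads a library in the knockout and 127 to 152 in the wild type. The groups overlapped. miR-26a-3p had 2, 8 and 6 reads in knockout libraries 1 to 3, against 4, 6 and 5 reads in wild type libraries 1 to 3. Its values of 0.24 to 0.82 RPM lay around 0.299 to 0.361 RPM, the worth of 3 reads, which a count of 0 still allows, and no difference of this arm was detectable at this depth.

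**Figure D1:**
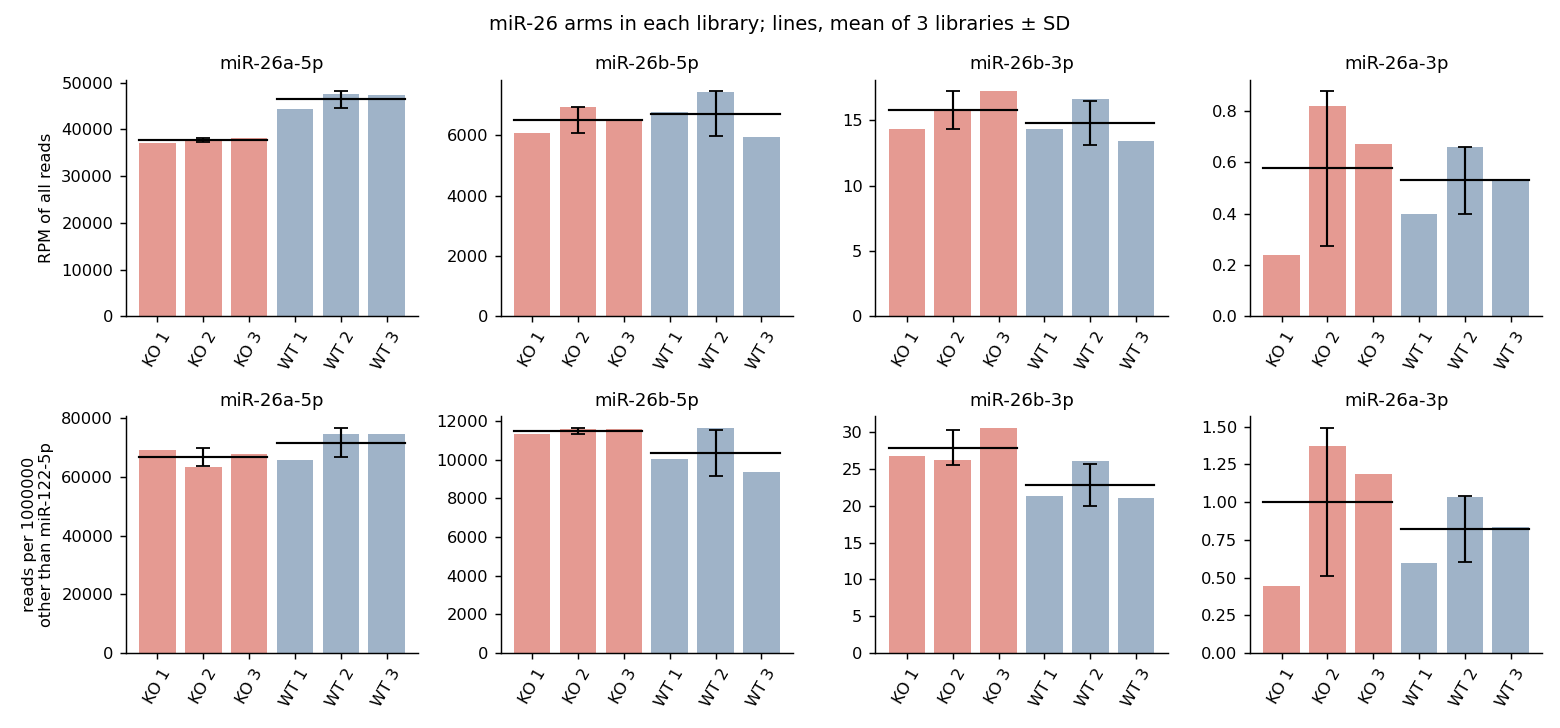
Level of each miR-26 arm in knockout (KO) and wild type (WT) libraries, as RPM of all reads (upper row) and as reads per 1000000 other than miR-122-5p (lower row); lines and error bars give the mean of 3 libraries and its SD. miR-26a-5p is lower in every knockout library in the upper row, and its genotypes overlap in the lower row.

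In the order of mean levels, the row above miR-26a-5p was miR-192-5p, a miRNA of liver and gut epithelium, which was higher in each of the 6 libraries, and the row below was let-7g-5p, which was lower in each of the 6. miR-26b-5p stood between let-7i-5p and miR-101b-3p, and was the higher of the pair in 2 and in 4 of 6 libraries, so these neighbours did not differ beyond their spread. miR-26b-3p likewise crossed its neighbours, miR-9a-5p and miR-362-3p, being higher in 2 and in 3 of 6 libraries. miR-26a-3p lay at rank 358.5, tied with miR-323-3p, among rows of a few reads.

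None of the 4 arms passed the test of change by genotype, made with limma on log2(RPM + 1) over all 570 miRNAs with Benjamini-Hochberg adjustment and a threshold of 0.05. By the same test 6.32% of the 570 miRNAs were called, 4 higher and 32 lower, a split of 20 and 29 with TMM scaling. With 1 library left out, 5 to 26 of the miRNAs were called. At an unadjusted p below 0.05, limma counted 1 of the 4 arms, miR-26a-5p. Many of the 570 miRNAs reached that level, but their share is not given here, so this count is not read as a result. On recovered reads edgeR and DESeq2 each called 0 of the 4, beside 10.7% of 570 miRNAs in edgeR and 20% of the 360 with an adjusted p in DESeq2. miR-26a-5p had a log2 change of -0.30 (SE 0.07, 95% interval -0.47 to -0.13, limma unadjusted p = 0.0040, adjusted p = 0.056), lower in 3 of 3 knockout libraries. With rows below a mean of 10 RPM left out it passed (limma adjusted p = 0.0091), as with a pseudocount of 5 (limma adjusted p = 0.042), and its change stayed at -0.30. miR-26b-5p had a log2 change of -0.04 (95% interval -0.29 to 0.21, limma adjusted p = 0.82), miR-26b-3p one of 0.09 (95% interval -0.36 to 0.53, limma adjusted p = 0.79) and miR-26a-3p one of 0.03 (95% interval -0.38 to 0.43, limma adjusted p = 0.93). These changes are relative to each library's total and understate those of rare rows. The authors' deposited table gives a log2 fold change of -0.2975 with a p-value of 0.57 for miR-26a-5p, and -0.0445 with a p-value of 0.26 for miR-26b-5p. In it 105 rows have a p-value below 0.05. The test behind these p-values is not stated, and the larger change has the larger p-value. They are therefore not comparable with those of limma.

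**Figure D2:**
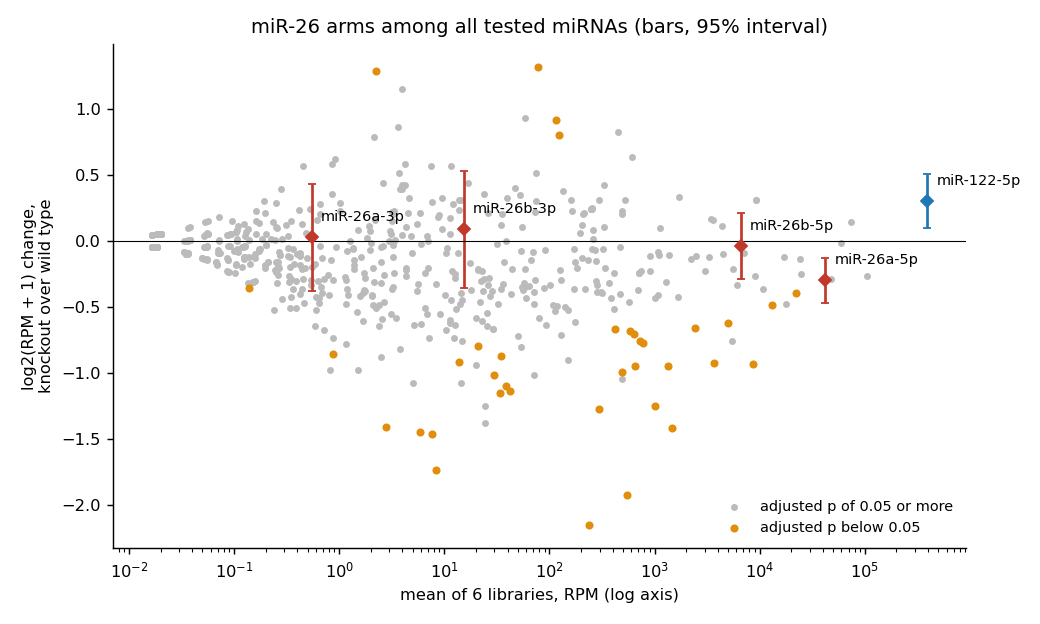
Log2(RPM + 1) change of knockout over wild type against mean RPM (log axis) for 570 tested miRNAs, with 95% intervals for the miR-26 arms and miR-122-5p; orange points have a limma adjusted p below 0.05. miR-26a-5p lies at -0.30 and the other 3 arms have intervals that span 0.

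The lower share of miR-26a-5p was of the size seen across miRNAs of at least 10 RPM. The median log2 change of those 218 miRNAs was -0.29, and 91 of them had all knockout libraries below all wild type libraries. miR-122-5p was higher in all 3 knockout libraries, at 43.4% ± 3.1 of reads in the knockout and 35.2% ± 2.2 in the wild type (SD, n = 3 each; exact two-sided permutation p = 0.1, the smallest that 3 against 3 libraries allow). With miR-122-5p left out of every total, miR-26a-5p stood at 69311, 63523 and 67657 reads per 1000000 other reads in knockout libraries 1 to 3, against 65826, 74674 and 74537 in wild type libraries 1 to 3. The groups then overlapped, with knockout libraries 1 and 3 above wild type library 1. On that total its log2 change was -0.10 (95% interval -0.29 to 0.09, limma adjusted p = 0.60), where limma called 7.73% of 569 miRNAs, 16 higher and 28 lower.

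On the same total, the estimate for miR-26b-5p changed sign. It stood at 11317, 11581 and 11568 reads per 1000000 other reads in knockout libraries 1 to 3, against 10056, 11650 and 9339 in wild type libraries 1 to 3. Its groups overlapped through wild type library 2, and its log2 change was 0.16 (95% interval -0.06 to 0.38, limma adjusted p = 0.46). miR-26b-3p stood at 26.7, 26.3 and 30.6 reads per 1000000 other reads in the knockout, against 21.3, 26.1 and 21.1 in the wild type. The groups did not overlap, by the small gap between knockout library 2 and wild type library 2, beside 22.5% of 569 miRNAs whose groups were apart on this total, and limma did not call it (log2 change 0.28, 95% interval -0.14 to 0.70, adjusted p = 0.50).

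Scalings that do not rest on the total gave like values. With TMM the log2 change was -0.07 for miR-26a-5p and 0.18 for miR-26b-5p, and with RLE it was -0.06 and 0.20 (limma adjusted p between 0.39 and 0.85). These scalings brought the median change of miRNAs of at least 10 RPM to -0.07 and -0.06. No direction can therefore be given for miR-26b-5p, whose sign turned with the scaling.

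**Figure D3:**
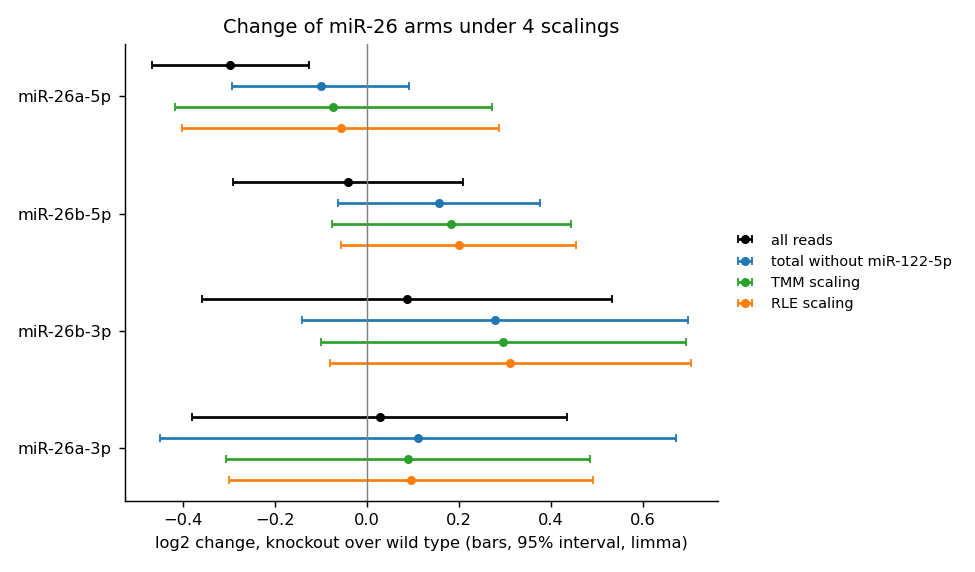
Log2 change of knockout over wild type for each miR-26 arm (rows) under 4 scalings (colours), as limma estimates with 95% intervals. The estimate for miR-26a-5p is -0.30 on all reads and between -0.10 and -0.06 under the other scalings, and that for miR-26b-5p is -0.04 on all reads and above 0 under the others.

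The 4 arms together summed to 4.33%, 4.49% and 4.47% of reads in knockout libraries 1 to 3, against 5.11%, 5.50% and 5.32% in wild type libraries 1 to 3. Every knockout library was below every wild type library. The means were 4.43% ± 0.09 in the knockout and 5.31% ± 0.20 in the wild type (SD, n = 3 each; exact two-sided permutation p = 0.1, adjusted p = 0.18 over 7 quantities compared in this way). Among reads other than miR-122-5p the family held 7.83% ± 0.29 in the knockout and 8.21% ± 0.55 in the wild type, with overlapping groups (SD, n = 3 each; exact two-sided permutation p = 0.4, adjusted p = 0.56).

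The balance between the paralogs does not depend on the total. There were 6.12, 5.49 and 5.85 miR-26a-5p reads for each miR-26b-5p read in knockout libraries 1 to 3, against 6.55, 6.41 and 7.98 in wild type libraries 1 to 3. All knockout ratios were below all wild type ratios, with wild type library 3 the highest and knockout library 1 close to wild type library 2. The mean ratio was 5.82 ± 0.32 in the knockout and 6.98 ± 0.87 in the wild type (SD, n = 3 each), a difference of -0.26 in mean log2 ratio (exact two-sided permutation p = 0.1, adjusted p = 0.18). Without wild type library 3, which held the lowest miR-26b-5p level, the difference was -0.16. miR-26a-5p made up 84.6% to 86.0% of the 5p reads of the family in the knockout and 86.5% to 88.9% in the wild type.

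The same difference was tested in a fit over all rows, with each row expressed against miR-26a-5p of its own library. miR-26b-5p had a log2 change of 0.26 against miR-26a-5p, with a 95% interval of -0.01 to 0.53, and did not pass (limma adjusted p = 0.17). In that fit 9.84% of 569 rows were called, 46 higher and 10 lower. Among the 217 rows of at least 10 RPM, 16 were called higher and 7 lower. Rows near 0 hardly move once 1 RPM is added, so they show mostly the change of miR-26a-5p with its sign turned. The number called ran from 0 rows without knockout library 1 (115 at an unadjusted p below 0.05 in limma) to 183 without wild type library 1. Ratios to miR-26a-5p kept the genotypes apart in 20.6% of rows. The 3p arms had changes of 0.38 for miR-26b-3p and 0.32 for miR-26a-3p against miR-26a-5p and did not pass (limma adjusted p = 0.23 and 0.24). miR-26a-3p, with a log2 change of 0.03 by itself, is a row near 0, so its value here is no measured change of that arm.

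The ratio of 5p to 3p reads differed far more between miR-26a and miR-26b than between the genotypes. The 5p reads of miR-26a may include those of a second locus, which cannot be told apart. Its ratio therefore need not be that of the Mir26a hairpin alone. For miR-26a there were 154882, 46290 and 56898 5p reads for each 3p read in knockout libraries 1 to 3, against 110766, 72105 and 89229 in wild type libraries 1 to 3. The groups overlapped, and with 2 to 8 reads of the 3p arm a library these ratios are loose. For miR-26b the 5p reads for each 3p read were 423, 441 and 378 in knockout libraries 1 to 3, against 472, 446 and 442 in wild type libraries 1 to 3. The lowest ratio of miR-26a was thus far above the highest of miR-26b, in libraries of either genotype.

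As a share of both arms, miR-26b-3p was 0.226% to 0.264% in the knockout and 0.211% to 0.226% in the wild type. Its 5p to 3p ratio was lower in all 3 knockout libraries, with a difference of -0.13 in mean log2 ratio (exact two-sided permutation p = 0.1, adjusted p = 0.18). The gap was small, from 440.8 in knockout library 2 to 442.2 in wild type library 3. With 0.5 RPM added to each arm, the difference was -0.13 with an exact two-sided permutation p of 0.2. Counting error alone gave a 95% Clopper-Pearson interval of 0.224% to 0.309% in knockout library 3, the highest, and of 0.178% to 0.249% in wild type library 1, the lowest, so the most distant libraries had intervals that met. For miR-26a-3p the share ran from 0.00065% to 0.0021% in the knockout and from 0.00090% to 0.0014% in the wild type. The 3p to 3p ratio and the arm ratio of miR-26a had differences in mean log2 ratio of -0.12 and -0.27 (exact two-sided permutation p = 0.8 and 0.7).

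**Figure D4:**
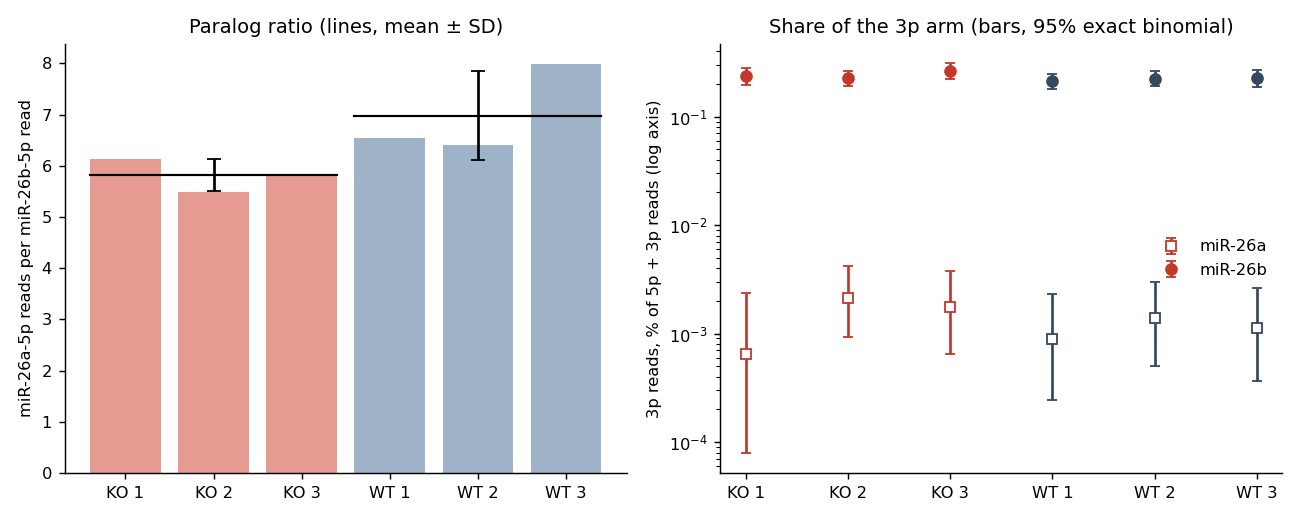
Left, miR-26a-5p reads per miR-26b-5p read in each knockout (KO) and wild type (WT) library, with the mean of 3 libraries and SD, from 5.49 to 7.98. Right, 3p reads as a percentage of both arms (log axis) with 95% exact binomial intervals, where miR-26b lies near 0.2% and miR-26a at or below 0.0021% in every library.

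Likeness to each 5p arm was measured as the SD over the 6 libraries of the log2 ratio of another miRNA to it, among the 119 other miRNAs of at least 100 RPM, and is a description only. All points share their libraries' totals, which cancel in the ratio. The steadiest ratio to miR-26a-5p was that of miR-192-5p (SD 0.05), which was 1.07 to 1.18 times as abundant in every library. It stood at 41157, 42569 and 44804 RPM in knockout libraries 1 to 3, against 50218, 55930 and 50672 RPM in wild type libraries 1 to 3, so its knockout libraries too were all lower. Next came let-7c-2-3p and let-7a-1-3p, which had identical values in every library and cannot be told apart (SD 0.06 each), then the endothelial miR-126a-3p and the let-7 guide let-7g-5p (SD 0.09 each).

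The 5 miRNAs of steadiest ratio to miR-26b-5p were miR-99b-5p (SD 0.08), the passenger strand miR-122-3p (SD 0.10), both arms of miR-30e (SD 0.10 and 0.11) and miR-872-5p (SD 0.11). miR-30e-5p was about as steady against miR-26a-5p (SD 0.11, place 7), so the neighbours of the paralogs are not distinct sets. The paralogs themselves were not close by this measure. miR-26b-5p was in place 38 of 119 for miR-26a-5p, with an SD of 0.19 beside a median of 0.24 over all candidates, and miR-26a-5p was in place 32 for miR-26b-5p. miR-122-5p was in place 84 for miR-26a-5p (SD 0.34) and 72 for miR-26b-5p (SD 0.26).

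**Figure D5:**
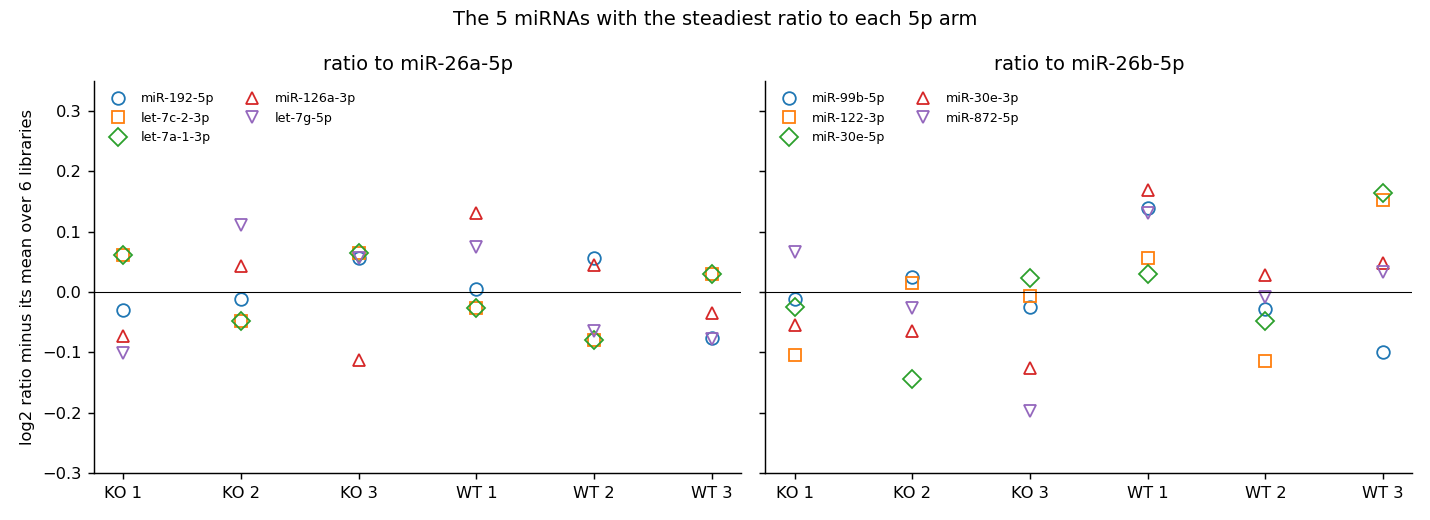
Log2 ratio of the 5 most like miRNAs to miR-26a-5p (left) and to miR-26b-5p (right) in each library, after subtraction of its mean over the 6 libraries. Points nearer 0 mean a steadier ratio, and miR-192-5p stays closest to 0 on the left.

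Other miRNAs reported to repress Ezh2, the Polycomb methyltransferase, showed no call in limma's test. Of 15 tested, 0 rose and 0 fell, with 5 at an unadjusted p below 0.05, while edgeR called 2 and DESeq2 3 on recovered reads. An unadjusted p below 0.05 was common over all rows, since in limma miR-101a-3p had an unadjusted p of 0.027 and an adjusted p of 0.18. The share of all rows at that level is not given here, so the 5 are not read as a result. Over all rows limma called 6.32%, edgeR 10.7% and DESeq2 20%. Those called by edgeR were miR-98-5p, a let-7 relative, with a log2 change of 0.53 (adjusted p = 0.016), and miR-214-3p, a fibroblast miRNA, with one of -1.20 (adjusted p = 0.026). DESeq2 also called let-7d-5p, with a log2 change of 0.40 (adjusted p = 0.042). Over the whole list the median log2 change in limma was -0.14, beside -0.12 for all 570 miRNAs. The median was -0.29 for all rows of at least 10 RPM, where most of the list lay. The list median also covers members near 0 RPM, so these medians are not matched in abundance. With miR-122-5p left out of the total, the medians were -0.06 for the list, -0.07 for all rows and -0.10 for rows of that abundance. let-7f-5p, the most abundant member of the list, averaged 59331 ± 1175 RPM in the knockout and 60104 ± 2198 RPM in the wild type (SD, n = 3 each). let-7a-5p and let-7g-5p followed, at 23224 ± 507 and 22624 ± 1964 RPM in the knockout, against 25552 ± 712 and 26883 ± 554 RPM in the wild type.

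Among miRNAs known to restrain G1 cyclins and their kinases, a role shared with miR-26a, 3 of 11 tested fell and 0 rose in limma's test, beside the 6.32% called over all rows. edgeR and DESeq2 also called 3 each on recovered reads, beside 10.7% and 20% over all rows. In limma 6 had an unadjusted p below 0.05. That level was common over all rows, but its share is not given here, so the 6 are not read as a result. Of the 12 listed names, 1 was not a row. The median log2 change of the list was -0.38, and -0.23 with miR-122-5p left out of the total, beside -0.12 and -0.07 for all rows. Over its 8 members of at least 10 RPM the medians were -0.46 and -0.27, beside -0.29 and -0.10 for all rows of that abundance. miR-16-5p, which represses cyclins D and E, was at 447, 565 and 601 RPM in knockout libraries 1 to 3, against 908, 934 and 875 RPM in wild type libraries 1 to 3 (log2 change -0.76, SE 0.13, limma adjusted p = 0.017). miR-322-5p and miR-15a-5p, of the same seed family, fell by 0.87 and 1.02 on the log2 scale (limma adjusted p = 0.025 and 0.038). The call of miR-16-5p was lost without knockout library 3 or wild type library 2 (limma adjusted p = 0.062 and 0.060), and those of miR-322-5p and miR-15a-5p without any single library but wild type 3 and in the replicate block. miR-195-5p and miR-497-5p, at 246.6 ± 29.0 and 76.9 ± 10.6 RPM in the knockout, against 304.2 ± 12.8 and 99.9 ± 22.2 RPM in the wild type, did not pass (limma adjusted p = 0.21 and 0.34).

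Markers of other cells were summed in each library beside these values. The 7 smooth muscle and fibroblast markers summed to 6895 to 9094 RPM in the knockout and 12086 to 19225 RPM in the wild type. Most of that sum was miR-143-3p, with means of 5914 RPM in the knockout and 11348 RPM in the wild type. Of the 7, miR-145-3p had overlapping groups (log2 change 0.08), while the others had log2 changes from -1.42 to -0.93. The 2 endothelial markers summed to 19147 to 21287 RPM in the knockout and 25222 to 26982 RPM in the wild type. The 5 leukocyte markers summed to 838 to 945 RPM in the knockout and 788 to 909 RPM in the wild type. Within that sum, miR-142-3p was higher in every knockout library (log2 change 0.42, limma adjusted p = 0.062), while the other leukocyte markers had log2 changes from -0.43 to -0.06. The 4 red blood cell markers summed to 377 to 459 RPM in the knockout and 467 to 580 RPM in the wild type. Of these, miR-144-3p had overlapping groups with a log2 change of 0.12, while the others had log2 changes from -0.42 to -0.20. The 5 hepatocyte markers, miR-122-5p included, summed to 565723 to 601396 RPM in the knockout and 512231 to 550940 RPM in the wild type. The other 4 hepatocyte markers went the other way, summing to 137699 to 163271 RPM in the knockout and 175935 to 185412 RPM in the wild type. Of these 4, limma called 1 lower, miR-194-5p, beside 6.32% over all rows, and miR-122-3p and miR-148a-3p had overlapping groups. All these sums are shares of all reads, on which the median log2 change of miRNAs of at least 10 RPM was -0.29. Every listed marker of these cells was above 0 in some library, which a few reads suffice for. The part of these markers in the miR-26 values was not tested.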

How the data were processed

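Each small RNA library used 1 μg of total RNA and was read as single ends of 50 bp, per the labels' protocols. The authors deposited RPM for 764 rat miRNAs in 6 libraries, with their mean RPM per genotype, log2 fold change and p-value, per the file headers. The submitters' processing notes name FastQC, BWA, edgeR and rn6 without roles or versions. Handling of mismatches and multiple mapping was not given in the sources used here. Sample columns were matched by name, with 0 left unmatched.

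Over the 570 miRNAs not at 0 throughout, log2(RPM + 1) was modelled on genotype with limma 3.58.1 (R 4.3.3, trended variance), and Benjamini-Hochberg adjustment used a threshold of 0.05. A further fit expressed each row against miR-26a-5p. The fits were tested on simulated data in which the most abundant rows, miR-122-5p and miR-26a-5p among them, were left unchanged. A change in the share of miR-122-5p was thus not simulated. Ratios and shares were compared by exact two-sided permutation, whose smallest p is 0.1. Whole reads were recovered from the RPM steps, with 97.8% to 98.9% of values above 0 within 0.0051 RPM of a whole number, against 8.5% to 10.2% by chance. The step of wild type library 1, 0.0996 RPM, is too near 0.1 for low values to show it, and its total rests on higher values. edgeR 4.0.16, which called 61 miRNAs, and DESeq2 1.42.0 on recovered reads were alternatives. No pair of libraries of a genotype agreed within sampling noise. Intervals and floors cover counting error only, and PCR copies were not removed. Likeness used miRNAs of at least 100 RPM, and the rule named its 5 leading rows for each 5p arm, the called or 3 most abundant members of each list, and the neighbours in level. Members called by edgeR or DESeq2 alone were named after their values were seen. Members and lists were chosen with earlier results of these data known.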

Additional observations from a re-analysis of the deposited data

How the results depend on the processing

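The log2 change of miR-26a-5p was negative in all 15 alternatives, from -0.33 to -0.06, and passed the threshold in limma with a mean of at least 10 RPM (-0.30) and with a pseudocount of 5 (-0.30). miR-26b-5p turned positive without miR-122-5p in the total (0.16), with TMM (0.18), with RLE (0.20), in edgeR (0.17) and in DESeq2 (0.19), and ran from -0.13 to 0.036 with single libraries left out; it passed in none. miR-26a-3p ran from -0.085 to 0.19 with single libraries left out, its ratio to miR-26b-3p from -0.47 to 0.35 (log2 difference) and the 5p to 3p ratio of miR-26a from -0.80 to 0.072, all resting on few reads. miR-26b-3p stayed positive and uncalled in all 15.

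The number of called miRNAs was 36, against 61 in edgeR, 72 in DESeq2, 22 in the replicate block and 5 to 26 with single libraries left out. Calls against miR-26a-5p were too unsteady to rest on. They numbered 56, 23 with a pseudocount of 0.1, 284 with one of 5, 36 at a mean of at least 10 RPM, 8 in the replicate block, and 0 to 183 with single libraries left out, where 0 were called by limma without knockout library 1 and 115 had an unadjusted p below 0.05. With a pseudocount of 5 miR-26a-3p was called there (0.31), which follows by construction, since a row below 1 RPM hardly moves on that scale and shows the change of miR-26a-5p with its sign turned. Same-numbered libraries had deviations correlated at 0.03, 0.18 and 0.20 over 218 miRNAs, against -0.29 to 0.06 for libraries of unlike number. Knockout library 1 correlated slightly better with wild type library 3 (0.04) than with wild type library 1 (0.03). The labels do not say what equal numbers mean, so whether libraries are paired cannot be told. In the block miR-26a-5p had a limma adjusted p of 0.21 and no arm passed. Depth limits miR-26a-3p, with 31 reads in all.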
